A study of Mus musculus with 12 samples.

Results

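The genes described here encode the cell's pool of actin monomer and the proteins that hold, charge or release that monomer. They are Actb and Actg1, the 2 cytoplasmic actins, Tmsb4x and Tmsb10, Pfn1 and Pfn2, and Cfl1, Cfl2 and Dstn. They were taken by gene symbol from tables of 39174 genes and not by a cut on their values. The list was chosen with earlier results of these data known. All 9 were present, and all 9 passed the filter on low values that left 13914 genes for testing.

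The libraries came from a study of Plastin 3, the BDNF receptor TrkB and calcium in mouse models of spinal muscular atrophy, a disease of motoneurons caused by too little SMN protein. Motoneurons of CD-1 mice were grown in microfluidic chambers, where axons enter a separate channel, and total RNA was read from 6 axonal and 6 somatodendritic (cell body and dendrite) compartments. Every library in both groups carried the Smn knockdown, so the comparison is between compartments within knockdown cultures, and libraries of unperturbed cultures were not analysed here. The labels do not say how Smn was lowered, the age of the embryos or whether replicates were separate cultures, so the p-values measure only the spread between these libraries, which may be technical.

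Actin exists as single molecules (G-actin) and as filaments (F-actin), and a growth cone moves by adding monomers at the front of its filaments and taking them off at the back. Beta-thymosins bind monomers and keep them out of filaments, profilins load monomers with ATP and hand them to formins and other filament builders, and proteins of the cofilin family cut old filaments and return monomers to the pool. Messenger RNA for beta-actin is a known example of an mRNA carried into axons and growth cones and translated there, and in motoneurons depleted of Smn its reduced axonal transport has been described as a defect of the disease model.

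The 2 actin genes specify nearly the same protein. Their coding sequences were identical at 88.7% of 1128 bases, and the longest identical run was 62 bases. The first 60 coding bases are shown because the amino acids that set beta-actin apart from gamma-actin lie there. They come from the GENCODE M21 annotation of the mouse genome (GRCm38), both genes lie on the minus strand, and capitals mark the 9 bases that differ. The Actb stretch is at chr5:142905627-142905686 and the Actg1 stretch at chr11:120348032-120348091.
Actb coding start: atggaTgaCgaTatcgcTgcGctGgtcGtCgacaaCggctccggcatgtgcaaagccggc
Actg1 coding start: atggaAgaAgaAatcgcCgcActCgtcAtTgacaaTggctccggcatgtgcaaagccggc

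The beta-actin transcript also holds a localization element, the zipcode, behind its stop codon. It is bound by the zipcode-binding protein Igf2bp1, as known from chicken and mouse, through an ACACCC motif and a CGGAC motif, here in capitals at chr5:142903767-142903796 on the minus strand (GRCm38), in the 3′ untranslated part of the last exon.
Actb zipcode site: CGGACtgttactgagctgcgttttACACCC
Within the first 60 bases after the stop codon, on the transcribed strand, ACACCC was present in Actb and in none of the other 8 genes. Of 20097 genes with at least 60 bases after the stop codon, 354 (1.76%) held ACACCC there, 371 (1.85%) held CGGAC and 12 (0.0597%) held both. Cfl1 had an ACACCC elsewhere in its 1708-base 3′ untranslated region. A match of letters is a description and not evidence of binding.

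The 2 beta-thymosins are short enough to be shown whole, from start to stop codon, with capitals at the 40 of 135 bases that differ. Each coding sequence is split over 2 exons, Tmsb4x within chrX:167207501-167208036 and Tmsb10 within chr6:72957618-72958012, both on the minus strand (GRCm38).
Tmsb4x coding sequence: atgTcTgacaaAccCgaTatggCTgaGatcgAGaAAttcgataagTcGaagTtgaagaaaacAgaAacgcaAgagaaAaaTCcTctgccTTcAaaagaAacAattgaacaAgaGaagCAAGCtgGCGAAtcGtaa
Tmsb10 coding sequence: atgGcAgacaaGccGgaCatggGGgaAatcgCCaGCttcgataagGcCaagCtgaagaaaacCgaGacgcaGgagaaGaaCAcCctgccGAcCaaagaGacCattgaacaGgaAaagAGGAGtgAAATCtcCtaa

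The deposited values were FPKM, which count fragments per unit of transcript length and per unit of library depth. They were rescaled between libraries for the comparisons, and levels below are rescaled FPKM. The deposited files gave no read totals. From the size of the FPKM step that 1 read makes in low genes, the libraries held about 217000 to 728000 reads, apart from somatodendritic replicate 4 with about 55000. Mitochondrial genes took 9.71 to 53.5% of the FPKM in axonal libraries and 10.4 to 12.0% in somatodendritic ones. Short non-coding RNAs took 5.61 to 8.68% in replicates 1 and 2 of both compartments and 12.9 to 22.0% in replicates 3 to 6. Of 7 motoneuron markers in the tables, Chat and Mnx1 were listed at 0 in all 12 libraries, and the summed level of the list reached 10.1 among axonal and 6.01 among somatodendritic libraries. General neuron markers had sums of 1180 to 1943 in the axonal compartment and of 1703 to 2083 in the somatodendritic one. The 5 markers of cell body and dendrite, led by the nuclear RNA Malat1, were not lower in the axonal libraries, at 1008 to 2055 (median 1753) against 696 to 1182 (median 1045). The 8 astrocyte and radial glia markers, led by Vim, summed to 134 to 764 (median 548) against 278 to 329 (median 319). Of these, Vim (median 272 against 72.4) and Fabp7 (133 against 110) had higher axonal medians. Slc1a3 (51.5 against 82.9) and Gfap (8.97 against 17.9) were lower there by median, as were Sox9, Aqp4, Aldh1l1 and Hes5. The words axon and axonal below therefore name the labelled compartment, and the part of cell bodies or other cell types in its levels was not tested. Smn1, the targeted gene, was listed at 8.93, 17.5, 0, 7.58, 56.2 and 6.29 in axonal replicates 1 to 6 and at 4.28, 0, 0, 0, 15.6 and 0 in the somatodendritic ones, which does not check the knockdown without an unperturbed library. In bulk libraries such as these, fewer cells of a type and less RNA per cell cannot be told apart.

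Transcripts for beta-actin and thymosin beta-10 dominated the group in both compartments. Tmsb10 averaged 2013 ± 836 (SD, n = 6) in axons and 2018 ± 675 (SD, n = 6) in the somatodendritic libraries, and Actb averaged 1820 ± 272 (SD, n = 6) and 1607 ± 332 (SD, n = 6). These 2 were the highest of the 9 genes in all 12 libraries and held 68.6 to 83.4% of the group's deposited FPKM. Among protein-coding genes Actb ranked between 5 and 25 and Tmsb10 between 1 and 16, depending on the library. The 9 genes held 1.79 to 2.29% of the FPKM of nuclear-encoded protein-coding genes in axonal libraries and 1.83 to 2.79% in somatodendritic libraries, ranges that overlapped.

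Below that pair, the mean levels per length ran in the order Actg1, Tmsb4x, Pfn1, Cfl1, Pfn2, Dstn and Cfl2, from 315 for Actg1 to 19.4 for Cfl2 over all 12 libraries. Parts of this order were the same in every library and parts were not. Actb exceeded Actg1, Cfl1 exceeded Pfn2 and Dstn exceeded Cfl2 in 12 of 12 libraries. Tmsb10 exceeded Actb in 7 of 12 libraries, Actg1 exceeded Tmsb4x in 7, Tmsb4x exceeded Pfn1 in 7 and Pfn1 exceeded Cfl1 in 8, so the order of these neighbours varied between libraries. In replicates 1 and 2 of both compartments, Tmsb10 was above Actb and Tmsb4x was below Pfn1. In replicates 3 to 6 Tmsb4x was above Pfn1 except in axonal replicate 3, and Tmsb10 and Actb stood in either order. Pfn2 exceeded Dstn in 10 of 12 libraries. Dstn and Cfl2 were the lowest pair in 10 of 12 libraries.

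**Figure D1:**
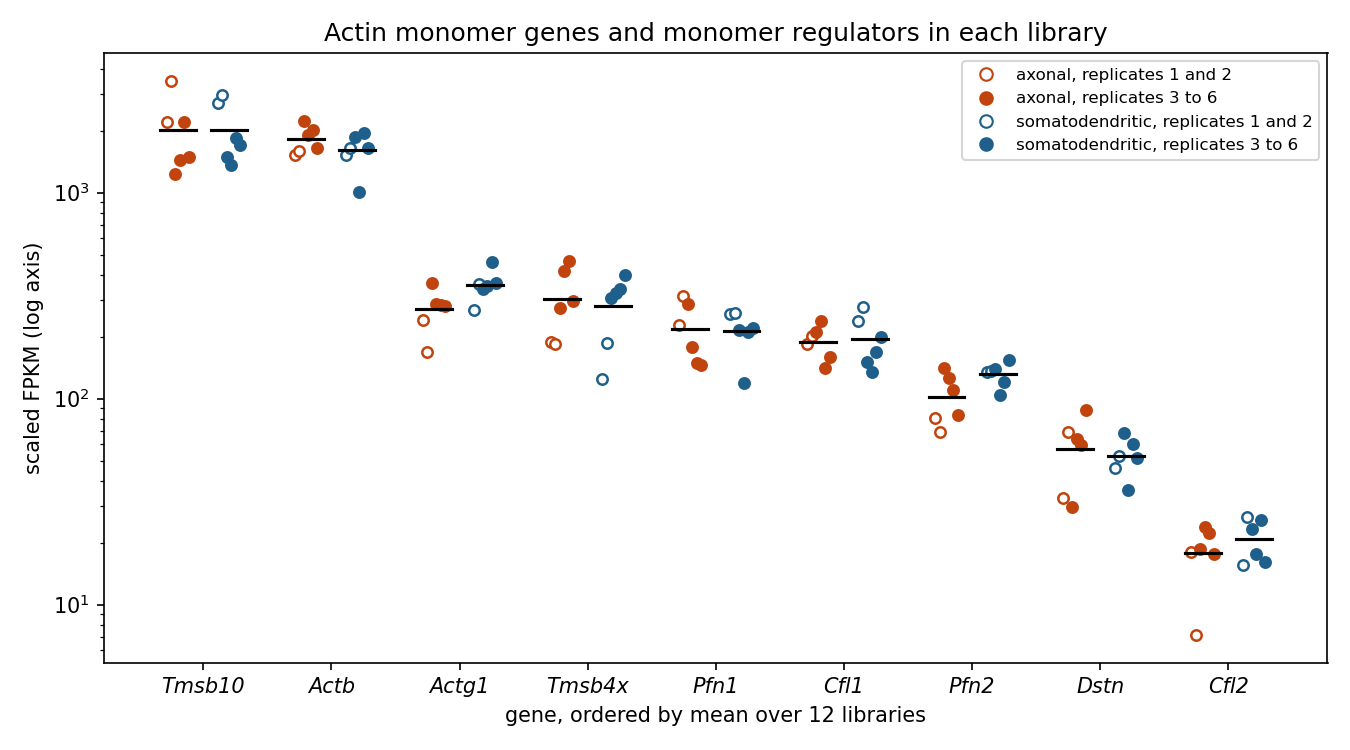
Rescaled FPKM (log axis) of each of the 9 genes in 6 axonal and 6 somatodendritic libraries, each point a library, with open points for replicates 1 and 2 and filled points for replicates 3 to 6. Tmsb10 and Actb lie above all other genes in every library, and the compartments overlap for each gene.

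The next comparison asked whether any of these transcripts was enriched or depleted in the axon. None of the 9 was called in either direction by limma at an adjusted p of 0.05, with adjusted p-values from 0.538 to 0.999, and in each gene the axonal and somatodendritic values overlapped. This count has to be read against a comparison in which few genes passed: 1 of 13914 genes was called (0.00719%), and the values of 0.712% of genes did not overlap between compartments. At an unadjusted p below 0.05, 1 of the 9 genes (Actg1) stood among 8.9% of all genes. The log2 fold change, axonal minus somatodendritic, was below 0 in 6 of the 9 genes and in 39.5% of all genes, and its median was -0.02 over the 9 genes and 0.18 over all genes tested. With 6 libraries in each group these intervals leave room for sizeable differences, and a p that misses the threshold does not show equal levels.

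Beta-actin transcripts were abundant in both compartments, and no difference between them passed the test. Axonal Actb ran from 1528 to 2217 with a median of 1778, and somatodendritic Actb from 1012 to 1957 with a median of 1650. Axonal replicates 3 and 5 were above all somatodendritic libraries, and the lowest value, 1012, was that of the shallow somatodendritic replicate 4. Between compartments the log2 fold change was 0.20 (95% interval -0.14 to 0.53, limma adjusted p = 0.732). That interval reaches from slightly below 0 to less than 1, where 1 would be a doubling. Without somatodendritic replicate 4 it was 0.07. The sign depended on the scaling, with -0.06 on FPKM as deposited and -0.32 after quantile normalization.

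Gamma-actin transcripts had a lower median in the axon, without passing the test. Axonal Actg1 ran from 168 to 364 with a median of 284, and somatodendritic Actg1 from 269.8 to 460.1 with a median of 356. Axonal replicates 1 and 2 were below all somatodendritic libraries. Axonal replicates 3 to 6 lay within the somatodendritic range, and axonal replicate 3 was as high as somatodendritic replicate 6. The log2 fold change was -0.42 (95% interval -0.82 to -0.02, limma adjusted p = 0.538), and -0.60 relative to the median of all genes. It stayed below 0 in all 27 alternative treatments of the data, between -0.68 and -0.29, and the lowest adjusted p among them was 0.411.

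Because both actins were measured in the same library, their ratio does not depend on the scaling between libraries. The ratio of Actb to Actg1 in the deposited FPKM was 5.85 to 9.52 in axonal libraries and 2.86 to 5.63 in somatodendritic libraries, so that every axonal library lay above every somatodendritic one. On the log2 scale the ratio averaged 2.77 ± 0.25 (SD, n = 6) in axons and 2.15 ± 0.35 (SD, n = 6) in the somatodendritic compartment, a difference of 0.62. The difference was 0.61 within replicates 1 and 2, 0.62 within replicates 3 to 6, and 0.49 without somatodendritic replicate 4. As a background for such separation, of 741 protein-coding genes above 0 in every library and averaging at least 50, 19 (2.56%) gave a ratio with Actb that did not overlap between compartments. The ratio was read after the levels of both genes were known and carries no test.

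The level of Actg1 itself is uncertain, because the genome holds many copies of it. Of all 50-base stretches of the Actg1 transcript, 56.7% occurred identically in at least 1 other annotated gene, among them 12 pseudogenes. The processed pseudogene Gm12715 shared 51.1% of these stretches, Gm8399 35.6% and Actg-ps1 22.3%, whereas Actb shared 1.58%. All 3 pseudogenes had values in the deposited tables. Gm12715 was listed at 284 ± 49.7 (SD, n = 6) in axons and 317 ± 63.4 (SD, n = 6) in the somatodendritic libraries, as high as Actg1, and Gm8399 at 103 ± 29.8 and 143 ± 41.9 (SD, n = 6 each). Neither passed the test (log2 fold change -0.15, limma adjusted p = 0.806, and -0.48, adjusted p = 0.604). The sources used here do not give how reads with several matches were divided. When the FPKM of the 3 pseudogenes was added to that of Actg1, an alternative chosen after seeing the data, the log2 ratio of Actb to the sum was 1.13 to 1.73 in axons and 0.23 to 1.24 in the somatodendritic compartment. The difference was then 0.51, and the compartments overlapped: somatodendritic replicate 1 lay above axonal replicate 6. Actb was not corrected in this way, although 14.2% of its own 50-base stretches occurred in another annotated gene, among them 14 pseudogenes. Of the Actb stretches, Lrrc58 shared 9.57%, Gm15725 6.73%, and Gm12715 and Gm8399 1.60% each. Lrrc58 was listed at up to 18.1 and Gm15725 at up to 53.6.

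**Figure D2:**
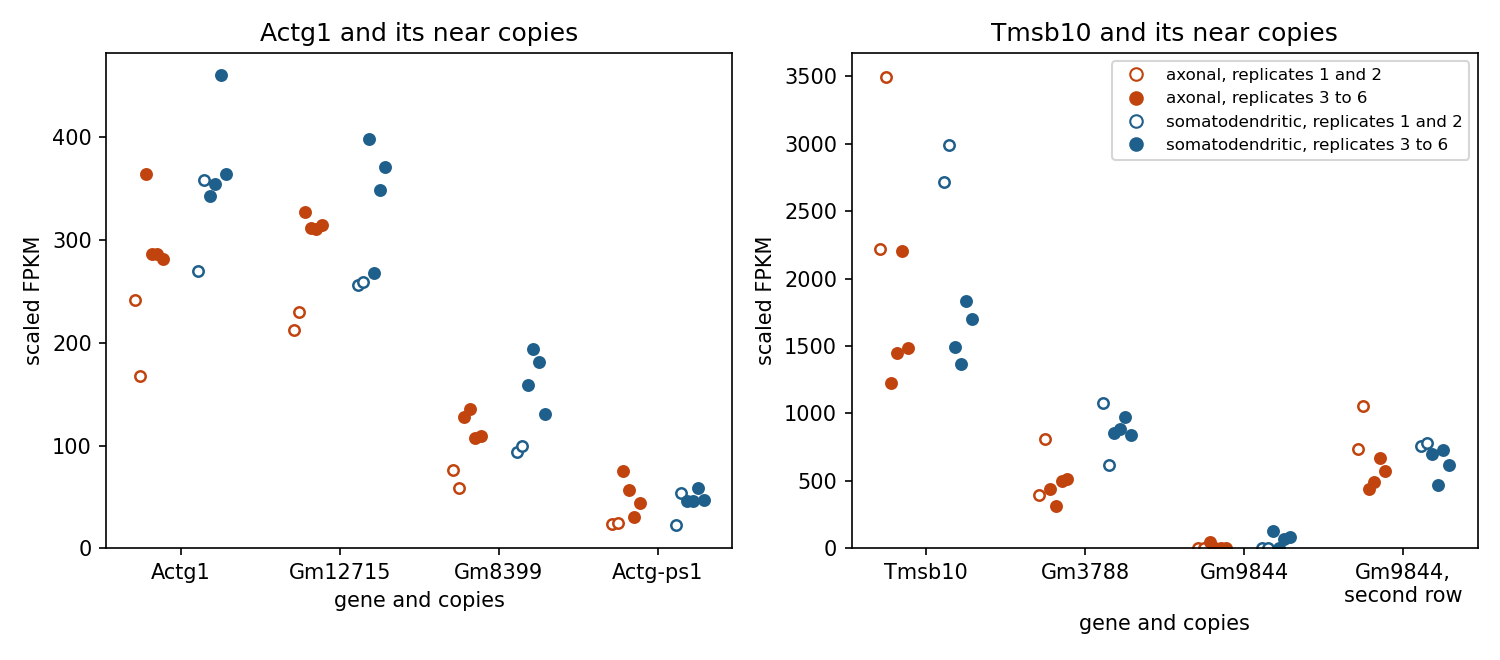
Rescaled FPKM (linear axis from 0) of Actg1 and 3 of its processed pseudogenes, and of Tmsb10 and its near copies, in each library, with open points for replicates 1 and 2. Gm12715 is listed at levels like those of Actg1, and Gm3788 and the second Gm9844 entry at 311 to 1077, below Tmsb10 in every library.

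The sequestering proteins came next. Thymosin beta-10 transcripts overlapped widely between the compartments. Axonal Tmsb10 ran from 1227 to 3497 with a median of 1844, and somatodendritic Tmsb10 from 1370 to 2993 with a median of 1769. Its log2 fold change was -0.03 (95% interval -0.57 to 0.50, limma adjusted p = 0.979). Thymosin beta-4 transcripts were several-fold fewer, at 185 to 467 in axons (median 288) and 125 to 398 in the somatodendritic libraries (median 317). The log2 fold change of Tmsb4x was 0.14 (95% interval -0.50 to 0.78, limma adjusted p = 0.905), and it was -0.12 on FPKM as deposited.

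The thymosin values separated the libraries by set of replicates and not by compartment. Tmsb10 exceeded Tmsb4x by 11.7 to 21.8 times in the 4 libraries of replicates 1 and 2 and by 3.47 to 5.40 times in the 8 libraries of replicates 3 to 6. This separation was common in these libraries: of the 741 genes used above, 31.7% gave a ratio with Tmsb4x that did not overlap between the sets, and 22.1% gave such a ratio with Tmsb10. The levels of each thymosin alone also did not overlap between the sets, which held for 3.77% of 742 protein-coding genes of that level and for none of the other 7 genes described here. Tmsb10 averaged 2857 in axons and 2856 in the somatodendritic compartment in replicates 1 and 2, against 1591 and 1599 in replicates 3 to 6. Tmsb4x averaged 187 and 156 in replicates 1 and 2, against 365 and 343 in replicates 3 to 6. The same division of libraries was seen in the share of short non-coding RNA given above. The labels name no batch, and the part of library make-up in the thymosin values was not tested. Within each set the log2 ratio of Tmsb4x to Tmsb10 varied less than between the sets, with means of -4.06 ± 0.38 (SD over 4 libraries) and -2.17 ± 0.19 (SD over 8 libraries). Between compartments it averaged -2.71 ± 0.96 and -2.89 ± 1.05 (SD, n = 6 each), and the values overlapped, against 0.135% of the 741 genes whose ratio with Tmsb4x did not.

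Tmsb10, like Actg1, has near copies, and 43.5% of its 50-base stretches occurred in another annotated gene. The processed pseudogene Gm3788, which shared 10.3% of them, was listed at 495 ± 172 (SD, n = 6) in axons and 875 ± 153 (SD, n = 6) in the somatodendritic compartment (log2 fold change -0.86, limma adjusted p = 0.315). Gm9844 stood in the tables under 2 overlapping identifiers. The one found to share stretches, 33.2% of those of Tmsb10, averaged 7.67 ± 18.8 and 46.9 ± 54.6 (SD, n = 6 each). The other averaged 659 ± 223 and 675 ± 114 (SD, n = 6 each). It lies at chr7:24862202-24862675, almost wholly on the first (chr7:24862213-24862697), so it covers nearly the same bases. Its own sharing was not measured. The Tmsb10 level is therefore uncertain in its absolute size. Its fold change may also depend on how shared reads were divided, which was not tested. Tmsb4x shared no 50-base stretch with another annotated gene.

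**Figure D3:**
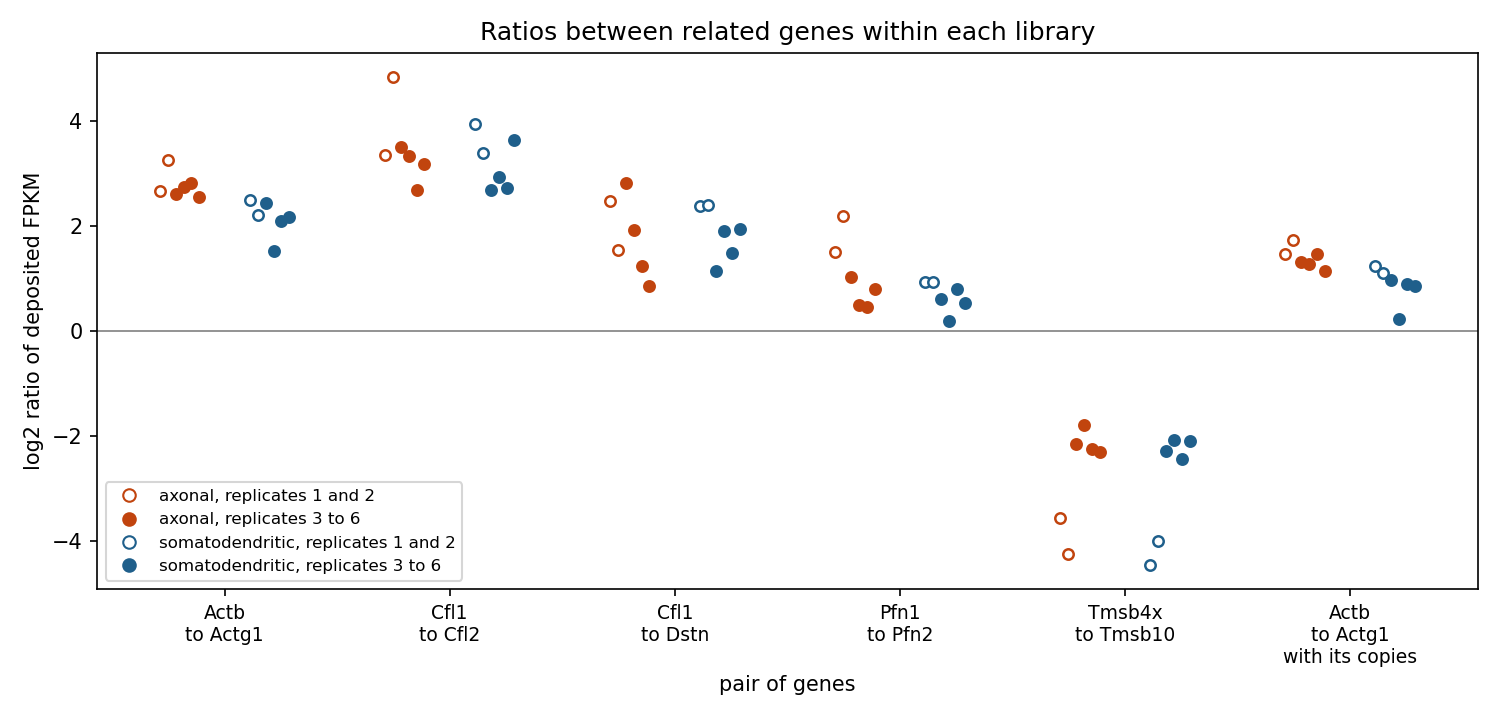
Log2 ratio of deposited FPKM between related genes within each library, each point a library, axonal left and somatodendritic right of each tick, with open points for replicates 1 and 2. The ratio of Actb to Actg1 separates the compartments (2.55 to 3.25 against 1.51 to 2.49). With the pseudogene copies added to Actg1 the compartments overlap (1.13 to 1.73 against 0.23 to 1.24). The ratio of Tmsb4x to Tmsb10 separates replicates 1 and 2 (-4.44 to -3.55) from replicates 3 to 6 (-2.43 to -1.80).

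Profilin 1, the widely expressed form, and profilin 2, the form typical of neurons, shared 61.5% of their coding bases and no 50-base stretch with any other annotated gene. Axonal Pfn1 ran from 145 to 314 with a median of 203, and somatodendritic Pfn1 from 119 to 259 with a median of 218. The log2 fold change of Pfn1 was -0.0010 (95% interval -0.51 to 0.51, limma adjusted p = 0.999). Axonal Pfn2 ran from 68.9 to 141 with a median of 96.6, and somatodendritic Pfn2 from 104 to 154 with a median of 136. Axonal replicates 1, 2 and 6 were below all somatodendritic libraries, and axonal replicates 3 to 5 were among them. The log2 fold change of Pfn2 was -0.41 (95% interval -0.85 to 0.03, limma adjusted p = 0.592), and it stayed below 0 in all 27 alternatives, between -0.86 and -0.18. Pfn1 exceeded Pfn2 in every library, and the log2 ratio averaged 1.08 ± 0.67 in axons and 0.67 ± 0.28 in the somatodendritic compartment (SD, n = 6 each), with overlap. That difference of 0.41 was 0.19 without axonal replicate 2, 0.16 within replicates 3 to 6 and 0.92 within replicates 1 and 2. Over the same 741 genes, 0.405% gave a ratio with Pfn1 that did not overlap. Axonal replicate 2 held the highest ratio, 2.19, and somatodendritic replicate 4 the lowest, 0.20, where Pfn1 rested on about 6 reads and Pfn2 on about 14.

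No difference passed the test for the filament-severing proteins either. Cofilin 1, the main form in neurons, ran from 141 to 239 in axons (median 193) and from 135 to 278 in the somatodendritic libraries (median 184). Its log2 fold change was -0.02 (95% interval -0.45 to 0.42, limma adjusted p = 0.989). Destrin, also called actin-depolymerizing factor, ran from 29.9 to 87.8 in axons (median 61.6) and from 36.04 to 67.9 in the somatodendritic libraries (median 52.2). The spread of Dstn was wider among axonal libraries, which lay both above and below all somatodendritic ones, and its log2 fold change was 0.05 (95% interval -0.56 to 0.65, limma adjusted p = 0.973). Cofilin 2, best known from muscle, ran from 7.13 to 23.8 in axons (median 18.3) and from 15.5 to 26.7 in the somatodendritic libraries (median 20.5). Its log2 fold change was -0.26 (95% interval -0.95 to 0.43, limma adjusted p = 0.823), and -0.03 without axonal replicate 2, which held the lowest value.

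The 3 genes are paralogs, with 71.5% of coding bases identical between Cfl1 and Cfl2, 68.1% between Cfl1 and Dstn and 66.8% between Cfl2 and Dstn. Of the 50-base stretches of Cfl1, 23.0% occurred elsewhere, most of them in Snx32, and those of Dstn in no other annotated gene. Cfl1 exceeded Cfl2 in every library, by 3.48 ± 0.72 on the log2 scale in axons and 3.21 ± 0.51 in the somatodendritic compartment (SD, n = 6 each). It exceeded Dstn by 1.81 ± 0.75 and 1.87 ± 0.49, and in both ratios the compartments overlapped, whereas 0.54% of the 741 genes gave a ratio with Cfl1 that did not. Counting error was large for the low genes: in somatodendritic replicate 4, Cfl2 rested on about 3 reads and Dstn on about 4, against about 113 for Actb. The upper confidence bounds deposited with the values lay 26.7 to 115% above the value for Cfl2 and 6.92 to 33.5% above it for Actb.

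**Figure D4:**
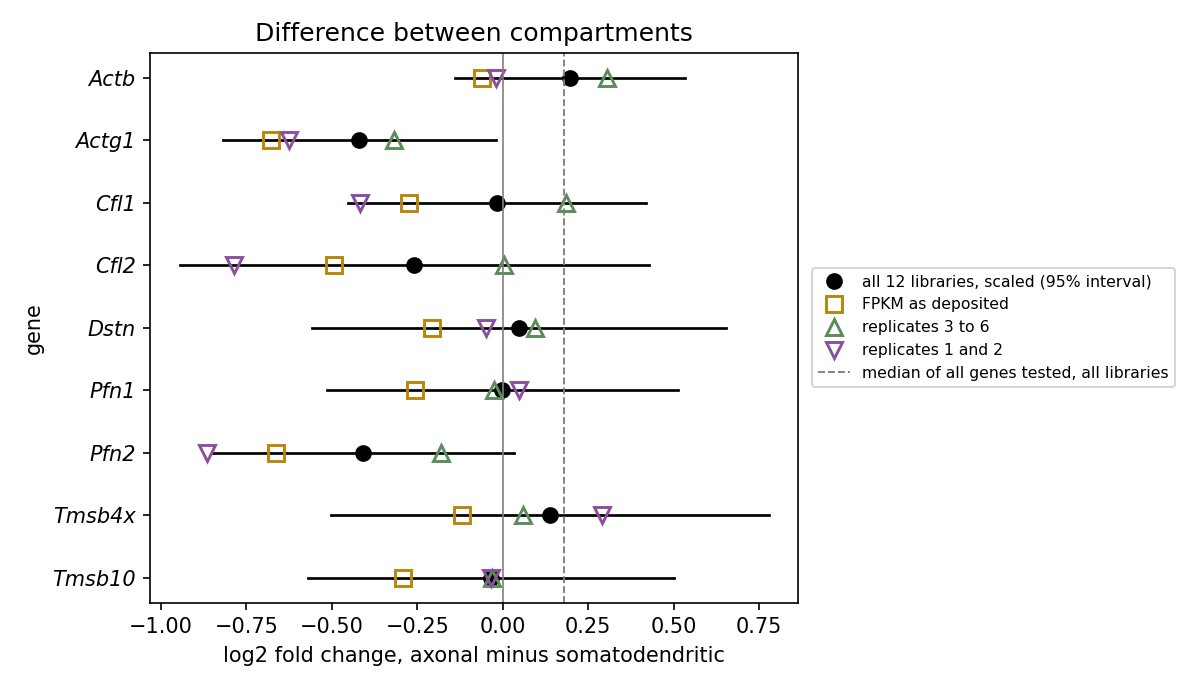
Log2 fold change, axonal minus somatodendritic, of the 9 genes with 95% intervals from limma over all 12 libraries (black), and the same on FPKM as deposited (squares), within replicates 3 to 6 and within replicates 1 and 2 (triangles). Actg1, Pfn2 and, close to 0 in most, Tmsb10 stay below 0 in each, and the dashed line is the median of all genes tested, 0.18.

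Across the 12 libraries the 9 genes did not vary as a block. These correlations use log2(rescaled FPKM + 1), mix compartments and replicate sets, and are given as a description. Pearson's r was 0.76 between Actg1 and Cfl2, 0.73 between Actg1 and Pfn2 and 0.68 between Cfl1 and Pfn1. It was 0.15 between Actb and Actg1, the 2 actins, and -0.64 between Tmsb4x and Tmsb10, the 2 thymosins. Of 757 other protein-coding genes averaging at least 50, those most like Actb were Rplp1 (r = 0.93) and Rps20 (r = 0.93), and those most like Actg1 were Wsb2 (r = 0.86) and Tspan13 (r = 0.82). For Pfn1 they were Rhoa (r = 0.84) and Setd8 (r = 0.82), and Pfn2 was nearest to Tsg101 (r = 0.86). Tmsb4x was followed most closely by Lars2 (r = 0.92) and Hist1h2al (r = 0.91), and Tmsb10 by the higher of the 2 Gm9844 entries (r = 0.89) and by Dtx1 (r = 0.87). The part of shared reads in the r of Gm9844 was not tested. Cfl1 was nearest to Shank1 (r = 0.77) and Tmbim6 (r = 0.75), Cfl2 to Cdc42 (r = 0.80) and Wsb2 (r = 0.77), and Dstn to Hsbp1 (r = 0.85) and Hmgcs1 (r = 0.81).

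The genes around the monomer pool were examined in 8 lists, ordered by role. Of 91 listed genes, 80 passed the filter, and none was called by limma at an adjusted p of 0.05. At an unadjusted p below 0.05, 10 of the 80 were higher in axons, where 6.3% of all genes were, and 3 were lower, where 2.61% of all genes were. Fold changes were above 0 in 59 of the 80, where 60.5% of all genes were, and below 0 in 21. On FPKM as deposited they were above 0 in 43 of the 80 and in 50.1% of all genes, so the sign counts depend on the scaling. The list medians below are to be read against the median of all genes tested, 0.18, or 0.0010 on FPKM as deposited. These numbers describe the lists and give no test of them.

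Among other actins, 2 of 5 were tested. Acta2, the smooth muscle actin, was listed at 10.3 to 192 in axons (median 107) and at 5.83 to 23.6 in the somatodendritic libraries (median 15.1), and axonal replicate 4 alone lay within the somatodendritic range. Its log2 fold change was 2.58 (limma adjusted p = 0.315). Acta2 is also a marker of smooth muscle and myofibroblasts. The 10 fibroblast and smooth muscle markers, Acta2 included, summed to 96.5 to 622 in axons and to 14.7 to 51.8 in the somatodendritic compartment. These sums did not overlap, but the list was uneven. Tagln, Thbs1, Cald1 and Myl9 had axonal medians of 54.7, 59.9, 43.0 and 32.2, against 7.38, 6.55, 5.58 and 0. Col1a1, Col1a2, Col3a1 and Lum reached at most 6.71, 0.688, 0.661 and 2.02 in axons, and Dcn was at 0 in all 12 libraries. The part of these markers in the actin values was not tested. Acta2 and Actg1 shared 0.368% of the Actg1 stretches.

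Of the remaining profilins and thymosins, 3 of 6 were tested, with a median log2 fold change of 0.30. Tmsb15b2 had the smallest p (log2 fold change 2.32, limma adjusted p = 0.582) and was listed at 0 in 7 libraries. Of other monomer and filament turnover proteins, 14 of 17 were tested and their median was 0.03, or -0.21 as deposited. Mical2, an enzyme that oxidizes actin filaments and takes them apart, was listed at 10.1 ± 10.4 (SD, n = 6) in axons and 1.10 ± 1.17 (SD, n = 6) in the somatodendritic compartment (log2 fold change 2.06, limma adjusted p = 0.388). At an unadjusted limma p below 0.05, 1 gene of this list was higher in axons and 2 were lower. The lower ones were Mical3 (log2 fold change -1.46, limma adjusted p = 0.484) and Gmfb (-0.64, adjusted p = 0.554).

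The kinases and phosphatases that switch cofilin off and on, with their upstream kinases, had 12 of 13 fold changes above 0 and a median of 0.26, against 8 of 13 and 0.05 on FPKM as deposited. Pak3, a kinase upstream of the LIM kinases, was at 56.2 ± 17.2 in axons and 35.6 ± 10.4 in the somatodendritic compartment (SD, n = 6 each, log2 fold change 0.63, limma adjusted p = 0.509). The formins and other profilin-binding filament builders had 14 of 19 above 0 and a median of 0.43, against 12 and 0.25 as deposited. Fmnl1, a formin, was at 10.3 ± 6.19 and 3.64 ± 1.55 (SD, n = 6 each, log2 fold change 1.15, limma adjusted p = 0.494).

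Capping, severing, bundling and tropomyosin proteins had 15 of 19 above 0 and a median of 0.30, against 10 and 0.13 as deposited. Tpm1, a tropomyosin that coats filaments, was at 98.4 ± 62.7 in axons and 37.4 ± 10.9 in the somatodendritic compartment (SD, n = 6 each, log2 fold change 1.199, limma adjusted p = 0.387). Pls3, the filament bundler Plastin 3 named in the study's title, was at 9.12 ± 6.08 and 2.01 ± 1.34 (SD, n = 6 each, log2 fold change 1.47, limma adjusted p = 0.544). Tpm1 and the sum of the fibroblast and smooth muscle markers above were both higher in most axonal libraries, and whether they share a source was not tested.

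Free actin monomer holds the co-activators of serum response factor in the cytoplasm, and the actin genes are known targets of that factor. Of 4 such genes 3 were tested. Mkl1, an actin-sensing co-activator, was at 8.69 to 17.6 in axons and 0 to 13.9 in the somatodendritic compartment (log2 fold change 1.22, limma adjusted p = 0.551). In RefSeq promoter windows (GRCm38.p6, from 250 bases before to 50 after the start), 8 of the 9 genes were matched, and Actb was not, so its promoter was not searched. The binding element of serum response factor, the CArG box, searched on both strands, was found in Actg1 and in none of the other 7 matched genes. It starts 90 bases before the Actg1 start, and 1.63% of all 32851 windows held such an element.

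Last, the 7 proteins known to bind or carry beta-actin mRNA had 3 fold changes above 0 and 4 below, with a median of -0.06, or -0.31 as deposited. Igf2bp1, which recognizes the zipcode shown above, was close to the detection limit, at 0 to 5.71 in axons and 0 to 5.53 in the somatodendritic compartment. Hnrnpr, which binds beta-actin mRNA in motoneuron axons, was at 28.4 ± 10.0 and 29.2 ± 7.88 (SD, n = 6 each). Elavl4, the neuronal RNA-binding protein HuD, was at 40.1 to 160 in axons and 82.1 to 153 in the somatodendritic compartment (log2 fold change -0.61, limma adjusted p = 0.577).

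**Figure D5:**
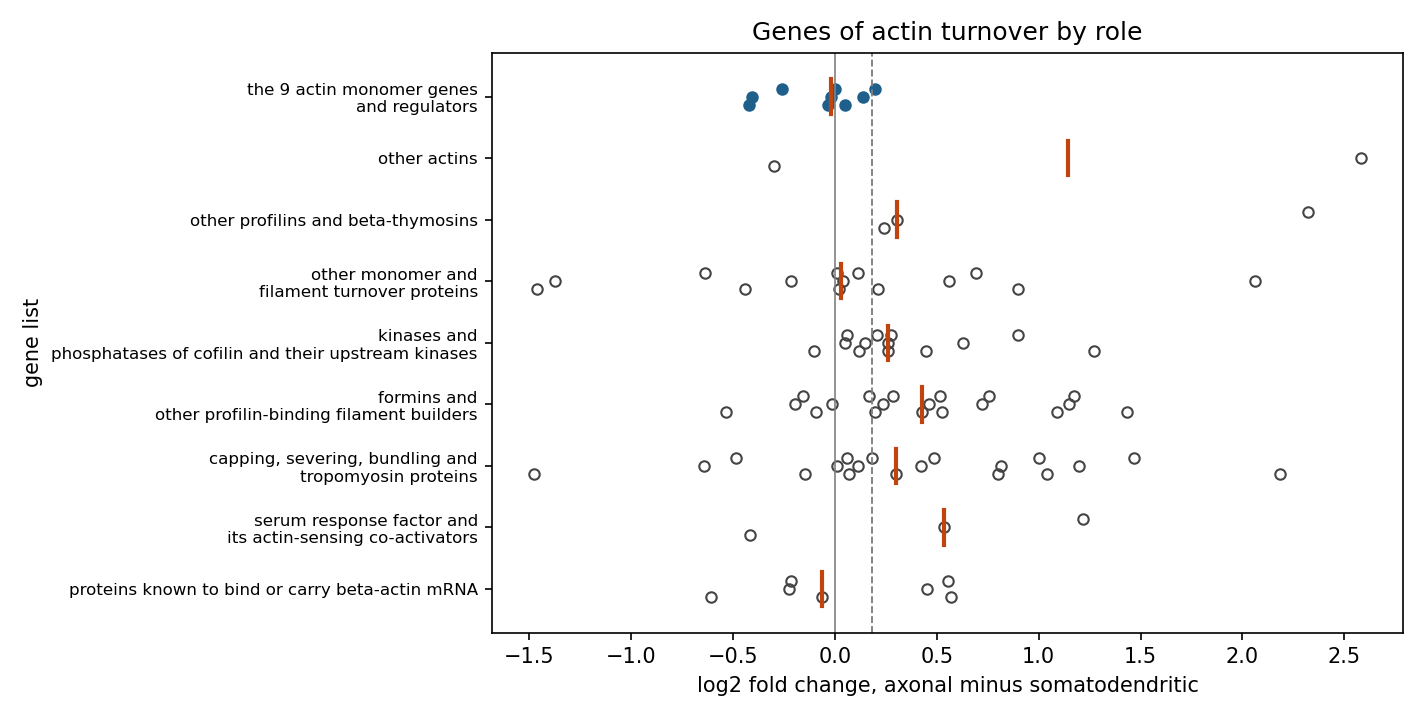
Log2 fold change, axonal minus somatodendritic, of the 9 genes (filled) and of the 80 tested genes of actin turnover by role (open), with a vertical bar at each list's median and a dashed line at the median of all genes. The 9 genes span -0.42 to 0.20, within the range of the lists, whose largest values are those of Acta2 (2.58) and Tmsb15b2 (2.32).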

How the data were processed

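Tables of 12 libraries were used, 6 per compartment, grouped and numbered by the sample titles. The authors deposited FPKM per gene with confidence bounds, in the layout of Cufflinks, per the file headers. The submitters' processing notes name Cufflinks 2.2.1, FastQC 0.10.1 and GRCm38. The aligner, the annotation, strand and the treatment of reads with several matches are not known from the sources used here.

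Each library was rescaled with a median-of-ratios factor taken from 5607 genes that exceeded 0 throughout. Those averaging a deposited FPKM of at least 1 were tested as log2(rescaled FPKM + 1) with limma 3.58.1 in R 4.3.3 (robust moderation with a trend, no term but compartment, two-sided, Benjamini-Hochberg adjustment over 13914 genes at 0.05). Fold changes on this scale understate those of low genes. The limma step was also run on simulated independent normal values. These held no replicate sets, depth differences or shared reads, so that run does not check the test under such conditions. Depth was estimated from the FPKM step of 1 read: 63.2 to 70.1% of values of up to 5 reads, in genes with at least 1000 exon bases, came within 0.02 of a whole read. Since the step depends on gene length and many values were not whole, no count test was run. Approximate reads per gene follow from that step and the annotated length.

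The 9 genes, the gene lists and the tests were chosen with earlier results of these data known. The genes named were the 9, Smn1, Pls3, Igf2bp1 and Hnrnpr, the gene of smallest p in each list, for each of the 9 the 2 genes of highest correlation (1 of these is not reported here), and the markers at 0 in all libraries. Gm12715, Gm8399, Actg-ps1, Gm3788, Gm9844, Gm15725 and Lrrc58 were named after their values were seen, for their shared sequence. Mical3, Gmfb and further single markers of glia, fibroblasts and smooth muscle were also named after their values were seen. Sequences, 50-base stretches and coding identity came from 1 principal transcript per gene of GENCODE M21, and identity from global alignment in Biopython 1.88. Alternatives were another scaling, pseudocount, filter, moderation, test or weighting, a replicate block, a term for replicates 1 and 2 against 3 to 6, each of these sets alone, and each library left out.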

Additional observations from a re-analysis of the deposited data

Results flagged for a closer look

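Of 32 groups of 6 values checked for a library that stands apart from the other 5, 2 had such a library, and chance alone gives about 1 in 20. Cfl2 was at 7.13 in axonal replicate 2, where the other axonal libraries were at 17.6 to 23.8, and that value rested on about 5 reads. Pfn1 was at 119 in somatodendritic replicate 4, where the other somatodendritic libraries were at 210.2 to 259, and that value rested on about 6 reads. Axonal replicate 2 had the highest mitochondrial share (53.5%), and somatodendritic replicate 4 the lowest depth (about 55000 reads). The part of either in these values was not tested.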

How the results depend on the processing

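None of the 9 genes was called in any of the 27 alternatives. Over all genes, 1 was called, and 3 were with a pseudocount of 0.1, 3 with plain moderation, 5 with array weights, 5 with the replicate block, 6 with a term for the replicate sets, 6 within replicates 3 to 6 and 17 there without somatodendritic replicate 4 (added after seeing the data). Within replicates 1 and 2 limma called 0 (710 at an unadjusted p below 0.05), and the exact rank-sum test called 0 (1063 at an unadjusted p below 0.05). Leaving out 1 library gave 1 to 11. Whether replicate numbers pair the compartments could not be decided. The highest correlation of same-numbered libraries, after removing group means, was 0.24 and the other 5 were below 0.1. For axonal replicates 1, 3 and 5 it was above the highest correlation with another number (0.24 against 0.20 in replicate 1). In replicates 2, 4 and 6 it was below, so the block is only a check. The median of all genes moved by -0.18 on FPKM as deposited, -0.13 with a common sum of nuclear-encoded protein-coding FPKM, -0.22 with quantile normalization, -0.12 within replicates 1 and 2 or without somatodendritic replicate 4 and -0.15 within replicates 3 to 6 without it.

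Actg1 and Pfn2 kept their direction throughout. Small fold changes turned. Actb was at -0.062 on FPKM as deposited, -0.32 with quantile normalization and -0.020 within replicates 1 and 2. Dstn was at -0.21 as deposited, -0.14 with the common sum, -0.0046 with quantile normalization, -0.085 with array weights, -0.048 within replicates 1 and 2 and -0.082 within replicates 3 to 6 without somatodendritic replicate 4. Tmsb4x was at -0.12 as deposited and -0.054 with the common sum. Within replicates 3 to 6 Cfl1 was at 0.18, or 0.096 without somatodendritic replicate 4, and Cfl2 at 0.0045. Pfn1 was at 0.049 within replicates 1 and 2. Leaving out 1 library gave -0.11 to 0.094 for Cfl1, -0.094 to 0.21 for Dstn, -0.16 to 0.10 for Pfn1, -0.075 to 0.26 for Tmsb4x and -0.21 to 0.093 for Tmsb10. The cause was not tested. Leaving out axonal replicate 2 took Cfl2 from -0.26 to -0.033, and leaving out somatodendritic replicate 4 took Actb from 0.20 to 0.069. Of the ratios between related genes, the difference for Actb to Actg1 kept its sign throughout (0.49 to 0.69), and that for Pfn1 to Pfn2 did too, at 0.16 to 0.92. The differences for Cfl1 to Cfl2, Cfl1 to Dstn and Tmsb4x to Tmsb10 were small, and for each of them leaving out 1 or another library turned the sign. Depth limits Cfl2, Dstn and Pfn1 most, in somatodendritic replicate 4.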
